A study of Mus musculus with 2 samples.

Results

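The stem cell cluster that runs between miR-290 and miR-295 is a group of microRNA hairpins on mouse chromosome 7, here the 6 genes Mir290a, Mir291a, Mir292, Mir293, Mir294 and Mir295. They were chosen by gene name and are 6 of the 1973 microRNA genes counted. No measured value entered the choice, though earlier results of these data were known. Small RNA was sequenced from the whole liver of B6NCrl mouse embryos on embryonic day 14.5. The libraries were made from total RNA with inserts under 30 nucleotides. There was 1 group of 2 libraries, replicate 1 and replicate 2, with no mutant or treated group. Per the labels each sample came from 1 liver and the collection days differed, yet both carry 1 donor ID and a sex of pooled male and female. Tests between the libraries set the difference between these samples against counting error only and hold no estimate of the spread between animals. Any difference called may therefore be technical.

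In mouse embryonic stem cells this cluster is read as a single long transcript that is cut into several hairpins. It is among the most abundant sources of microRNA in those cells and is switched off as they differentiate. Its promoter there is bound by the pluripotency factors Oct4, Sox2 and Nanog, and its products speed the passage from G1 into S phase by repressing cell cycle inhibitors. The early embryo, the placenta and primordial germ cells are also known to express it. The liver at this age is a blood-forming organ, with immature liver cells beside many red cell precursors.

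On each side of the hairpins most arms share their first bases, which is why the sequences are shown first. A microRNA finds its targets mainly through its seed, bases 2 to 8 counted from the 5′ end, written here in capitals. All 6 members matched the RefSeq table of mature sequences (build GRCm38.p6), with the 5p arm for 6 of them and the 3p arm for 5. The 3p arm missing from the table is that of Mir292. The 3p arms are shown first, since those with AAGUGC at bases 2 to 7 are the ones known for the effect on the stem cell cycle. Mir291b, a hairpin of the same locus outside the 6 genes, is included for comparison.
mmu-miR-290a-3p: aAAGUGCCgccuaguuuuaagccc
mmu-miR-291a-3p: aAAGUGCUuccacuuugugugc
mmu-miR-291b-3p: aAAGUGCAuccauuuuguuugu
mmu-miR-293-3p: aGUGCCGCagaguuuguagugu
mmu-miR-294-3p: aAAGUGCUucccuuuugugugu
mmu-miR-295-3p: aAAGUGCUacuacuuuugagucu

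The arms of Mir291a, Mir294 and Mir295 shared the seed AAGUGCU. Of 1679 mature names in the table, 5 (0.298%) had it, the other two being miR-302b-3p and miR-302d-3p of the second pluripotency cluster. The seed AAGUGCC of miR-290a-3p occurred in 1 name (0.0596%), and AAGUGCA of miR-291b-3p in 2 (0.119%), the other being miR-350-5p. The 3p arms of Mir292 and Mir302a are missing from the table, so these counts of names leave them out and may be too low. miR-291a-3p and miR-294-3p had the same base at 19 of their first 21 positions, and miR-291a-3p and miR-295-3p at 14. miR-293-3p stood apart when positions were compared from base 1, with 6 to 8 identical positions against the 5 other 3p arms shown. Moved by 2 bases, however, its first 8 bases are the same as in miR-290a-3p. The related growth family around miR-17 holds almost the same letters moved by 1 base, so that its seed is AAAGUGC, found in 7 names (0.417%). An arm of each kind is shown for that contrast.
mmu-miR-302b-3p: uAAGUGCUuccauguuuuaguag
mmu-miR-17-5p: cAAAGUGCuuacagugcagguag

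On the other arm the shared start was CUCAAA at bases 2 to 7, held by 6 of the 1679 names (0.357%), of which 5 belong to members. Mir290a, Mir292 and Mir293 shared the whole seed CUCAAAC, which no other name in the table had.
mmu-miR-290a-5p: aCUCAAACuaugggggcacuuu
mmu-miR-291a-5p: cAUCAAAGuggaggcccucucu
mmu-miR-292a-5p: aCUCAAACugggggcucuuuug
mmu-miR-293-5p: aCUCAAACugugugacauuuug
mmu-miR-294-5p: aCUCAAAAuggaggcccuaucu
mmu-miR-295-5p: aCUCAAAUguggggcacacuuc

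The counts are per hairpin gene, so the values below do not say which arm the reads came from. For every arm matched, the first 18 bases occurred in no other hairpin of the table (1005 hairpins, both strands) apart from Mir290b and Mir292b, which are annotated on the opposite strand of Mir290a and Mir292. Mir290b and Mir292b were not analysed here.

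The 6 hairpins lie on the plus strand of chromosome 7 within 2216 bases (GRCm38, the assembly of mm10, with GENCODE M21 annotation). In order they are Mir290a (3218626 to 3218708), Mir291a (3218919 to 3219000), Mir292 (3219189 to 3219270), Mir293 (3220343 to 3220422), Mir294 (3220641 to 3220724) and Mir295 (3220773 to 3220841). Mir291b (3219482 to 3219560) sits between Mir292 and Mir293. From Mir291a onward each hairpin falls inside an untranslated stretch of an exon of Nlrp12, a gene for a sensor of the innate immune system that is annotated on the minus strand (3218784 to 3249740). Mir290a lies outside Nlrp12. Reads on the minus strand over the 6 members numbered 0 in replicate 1 and 1 in replicate 2, where the read fell on Mir292.

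Replicates 1 and 2 held 2353946 and 3132763 own-strand reads in microRNA genes, of 6395680 and 8068090 reads in all. Levels are given as CPM, counts per 1000000 own-strand gene counts, so 1 read is worth 0.425 CPM in replicate 1 and 0.319 CPM in replicate 2. A count of 0 allows up to 3 counts, or 1.27 and 0.958 CPM. Intervals are 95% exact intervals, Clopper-Pearson for levels and shares and binomial for ratios, and like these limits they cover counting error only, since PCR copies are not independent molecules. The tissue label was checked against defining markers. Mir122, the microRNA typical of liver cells, had 97349 and 110371 CPM in replicates 1 and 2, and Mir451a, of red cells, had 38020 and 30243 CPM.

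The cluster was present at a low level in both livers. Its 6 members together had 232 counts in replicate 1 and 408 in replicate 2. This is 98.6 CPM (86.3 to 112) in replicate 1 and 130 CPM (118 to 144) in replicate 2, with a mean of 114 ± 22.4 CPM (SD, n = 2). As a share of the counts this was 0.00986% and 0.0130%. Taken as 1 gene, the cluster would have ranked 193 of 1973 in replicate 1 and 184 in replicate 2. Of these 1973 genes, 1360 in replicate 1 and 1344 in replicate 2 had no count. In whole tissue, few cells with much of a microRNA and many cells with little cannot be told apart. All 6 members had at least 1 count in each library, which holds for 27.5% of all genes. At least 10 counts in each library, the minimum used for testing, were reached by 4 members, and by 16.8% of all genes.

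The levels were uneven along the locus, lowest at the first hairpin and highest at Mir293 and Mir294. Mir290a, at the 5′ end, had 2 counts in replicate 1 and 4 in replicate 2, or 0.850 CPM (0.103 to 3.07) and 1.28 CPM (0.348 to 3.27). Its rank was 464 in replicate 1, tied with 56 other genes, and 421 in replicate 2, tied with 30. In replicate 1 this is below the limit that a count of 0 allows.

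Mir291a, whose 3p arm promotes proliferation of embryonic stem cells, had 16 counts in replicate 1 and 48 in replicate 2. Its level was 6.80 CPM (3.89 to 11.0) in replicate 1 and 15.3 CPM (11.3 to 20.3) in replicate 2, ranks 310 and 263. The intervals did not overlap. Mir292 followed with 43 and 58 counts, which was nearly the same level in both livers, 18.3 CPM (13.2 to 24.6) in replicate 1 and 18.5 CPM (14.1 to 23.9) in replicate 2, ranks 265 and 253.

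Mir293, whose 3p seed is GUGCCGC, had the highest mean level of the 6. It had 82 counts in replicate 1 and 158 in replicate 2, or 34.8 CPM (27.7 to 43.2) and 50.4 CPM (42.9 to 58.9), ranks 228 and 213. Mir294, whose 3p arm promotes the passage from G1 into S phase in stem cells, had 83 and 125 counts, or 35.3 CPM (28.1 to 43.7) and 39.9 CPM (33.2 to 47.5), ranks 226 and 222. Mir295, at the 3′ end, dropped to 6 and 15 counts, or 2.55 CPM (0.935 to 5.55) and 4.79 CPM (2.68 to 7.90), ranks 376 and 319. Its intervals for the 2 livers overlapped, as did those of Mir290a, Mir292, Mir294 and, narrowly, Mir293.

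**Figure D1:**
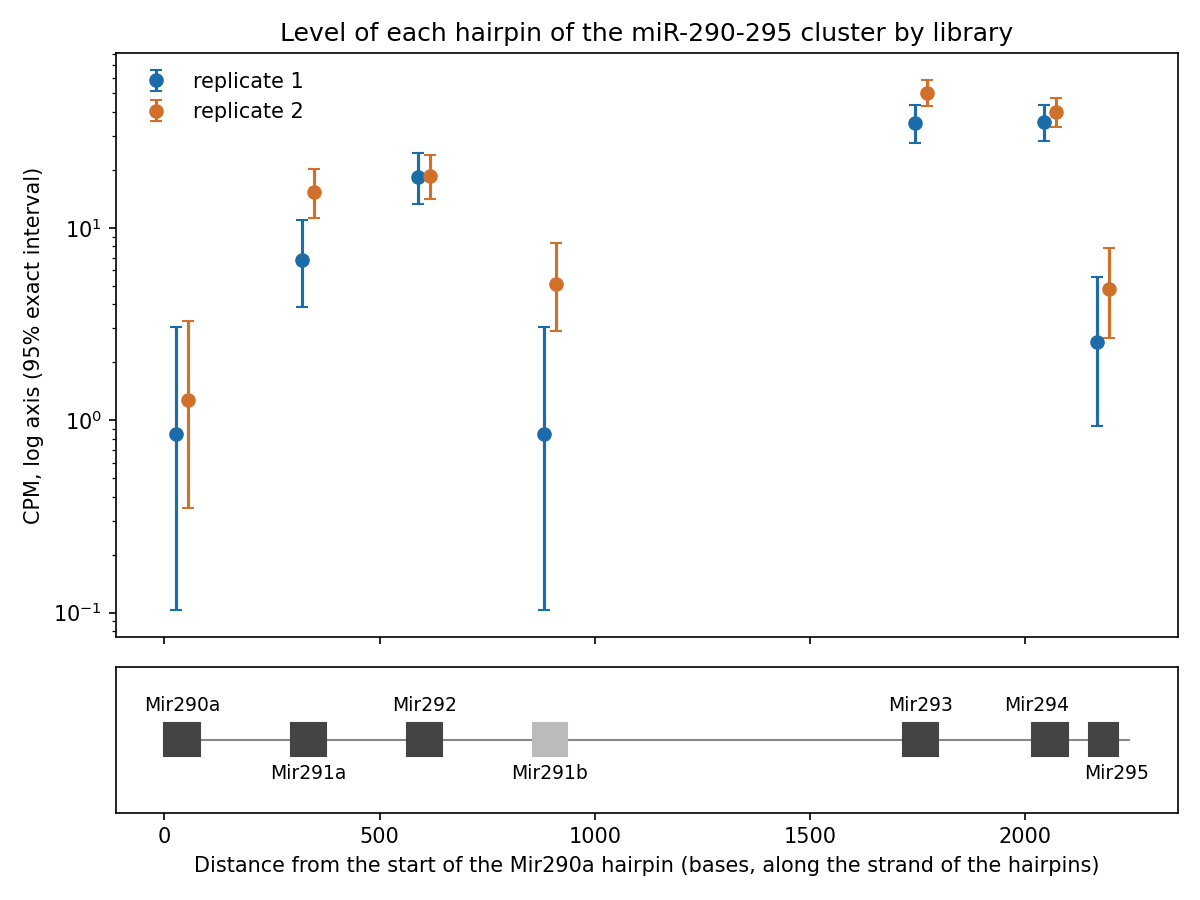
Level of each hairpin in CPM (log axis) against distance from the start of Mir290a in bases. Points are the 2 livers and bars 95% exact counting intervals; the lower strip shows the hairpins to scale, with Mir291b in light grey. Levels run between 0.850 CPM at Mir290a in replicate 1 and 50.4 CPM at Mir293 in replicate 2, and fall again at Mir295.

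By mean CPM the order was Mir293 (42.6 ± 11.0), Mir294 (37.6 ± 3.28), Mir292 (18.4 ± 0.175), Mir291a (11.1 ± 6.03), Mir295 (3.67 ± 1.58) and Mir290a (1.06 ± 0.302), each as SD with n = 2. Hairpin lengths were 69 to 84 bases, and per 100 bases of hairpin the order of these means was the same, running between 53.3 CPM at Mir293 and 1.28 CPM at Mir290a. Mir293 and Mir294 did not differ beyond counting error, with a count ratio of 0.988 (0.719 to 1.36) in replicate 1 and 1.26 (0.993 to 1.61) in replicate 2. Mir292 was above Mir291a by 2.69-fold (1.48 to 5.11) in replicate 1, whereas in replicate 2 the ratio was 1.21 with an interval that includes 1 (0.810 to 1.81). Per 100 bases, Mir292 had 22.3 and 22.6 CPM in replicates 1 and 2 and Mir291a had 8.29 and 18.7 CPM.

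The last pair of hairpins lay close together but differed in level. Mir294 and Mir295 are 48 bases apart, the shortest gap in the locus, and Mir294 had 13.8 times the counts of Mir295 in replicate 1 (6.09 to 38.8) and 8.33 times in replicate 2 (4.86 to 15.3). Per base of hairpin these ratios were 11.4 and 6.85. Between the ends of the cluster, Mir295 had 3.0 times the counts of Mir290a in replicate 1 (0.536 to 30.4) and 3.75 times in replicate 2 (1.19 to 15.5). Mir293 and Mir294 together made up most of the cluster in each library. Mir293 was 35.3% of the cluster's counts (29.2 to 41.9) in replicate 1 and 38.7% (34.0 to 43.6) in replicate 2. Mir294 was 35.8% (29.6 to 42.3) in replicate 1 and 30.6% (26.2 to 35.4) in replicate 2. The share of Mir291a was 6.90% (3.99 to 11.0) in replicate 1 and 11.8% (8.80 to 15.3) in replicate 2, and that of Mir292 was 18.5% (13.8 to 24.1) and 14.2% (11.0 to 17.99).

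**Figure D2:**
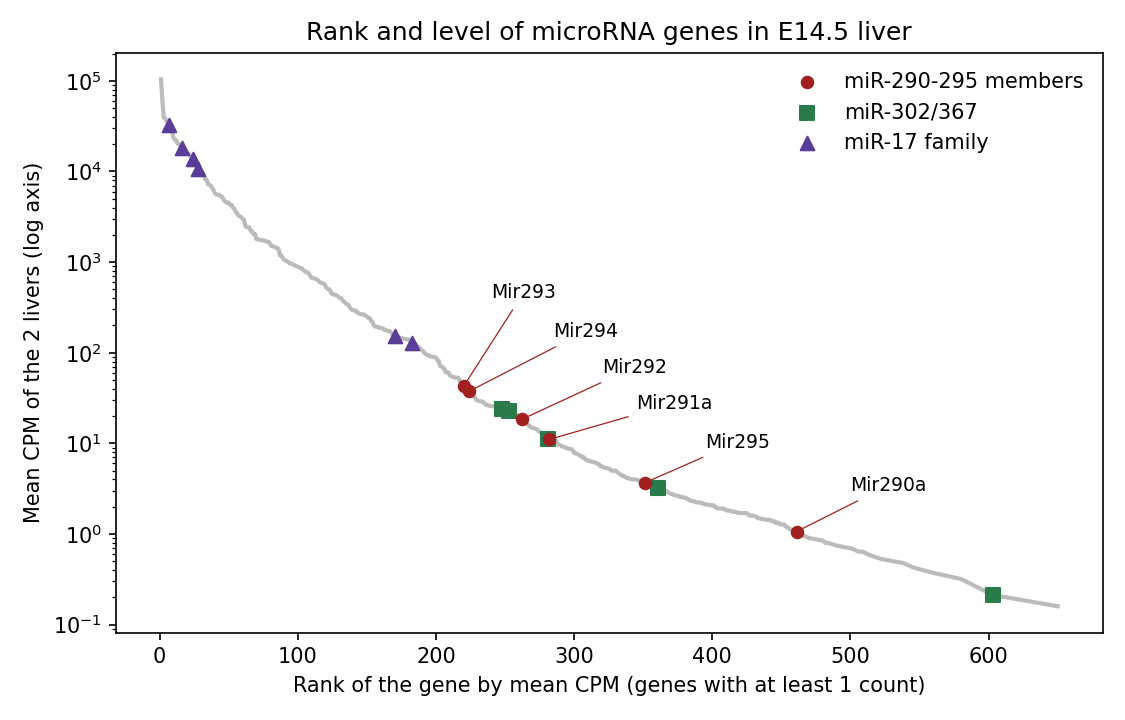
Mean CPM of the 2 livers (log axis) against rank for every microRNA gene with at least 1 count (grey line), with the members, the miR-302 cluster and the miR-17 family marked. The members lie between rank 220 (Mir293) and rank 461 (Mir290a), 4 genes of the miR-302 cluster among them, and Mir17 is at rank 7.

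Between the livers, Mir291a and Mir293 were lower in replicate 1 than in replicate 2, and the other 4 members were not called different. Each gene with at least 10 counts in both libraries was compared by a two-sided exact binomial test with Benjamini-Hochberg adjustment over the 332 genes tested, and a gene was called at an adjusted p under 0.05. For Mir291a the ratio of replicate 1 over replicate 2 was 0.444 (0.235 to 0.795), a log2 ratio of -1.17 (adjusted p = 0.0102, exact binomial test). For Mir293 the ratio was 0.691 (0.522 to 0.907), a log2 ratio of -0.53 (adjusted p = 0.0164, exact binomial test). Mir294 had a ratio of 0.884 (0.661 to 1.18; adjusted p = 0.561, exact binomial test), an interval that includes both a decrease and an increase.

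Mir292 had a ratio of 0.987 (0.649 to 1.49), which became 1.003 by TMM scaling and 1.001 by DESeq2 size factors, so it had no direction. Mir295 and Mir290a were under the minimum for testing, with ratios of 0.532 (0.169 to 1.45) and 0.665 (0.0602 to 4.64). So 2 of the 4 members tested were called, 0 higher in replicate 1 and 2 higher in replicate 2. Over all genes tested, 41.9% were called in either direction, 18.4% higher in replicate 1 and 23.5% higher in replicate 2. With 4 members, a count of 2 is close to the share called in either direction. The genes behind that share had more counts than the members, with medians of 393.5 in replicate 1 and 528.5 in replicate 2. The median log2 ratio of the 4 tested members was -0.36, beside -0.03 over all genes tested. By library totals all 4 had a ratio under 1, as had 57.2% of all genes tested, but that of Mir292 was above 1 by TMM and DESeq2 scaling.

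The median of the mean levels of all genes tested was 173 CPM, above each of the 6 members. Between the mean levels of Mir291a and Mir293 (11.1 to 42.6 CPM), a range taken after the values were seen, lay 63 genes, of which 17.5% were called. That is 11 genes, 9 of them higher in replicate 1. The other 2, higher in replicate 2, were Mir291a and Mir293 (3.17% of the 63). The 63 genes include all 4 tested members, so these shares are not a background apart from the cluster. Mir291a was also the 1 gene of the 332 that was called with a log2 ratio below -1, against 16 called genes with a log2 ratio above 1.

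The sum of the 6 members had a ratio of 0.757 (0.641 to 0.891). Mir291b, the extra hairpin of the locus, pointed the same way with 2 counts in replicate 1 and 16 in replicate 2, or 0.850 and 5.11 CPM, a ratio of 0.166 (0.0186 to 0.708). It was under the minimum for testing. With no minimum on counts its adjusted p was 0.0361 (exact binomial test over 700 genes), the one alternative that tested it. Mir291a and Mir291b have 5p arms that are the same at 20 of their first 21 bases and 3p arms the same at 18. The levels were not alike, Mir291a having 8.0 times the counts of Mir291b in replicate 1 (1.88 to 71.7) and 3.0 times in replicate 2 (1.67 to 5.66). Reads that fit both hairpins equally well would not have been counted for either.

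**Figure D3:**
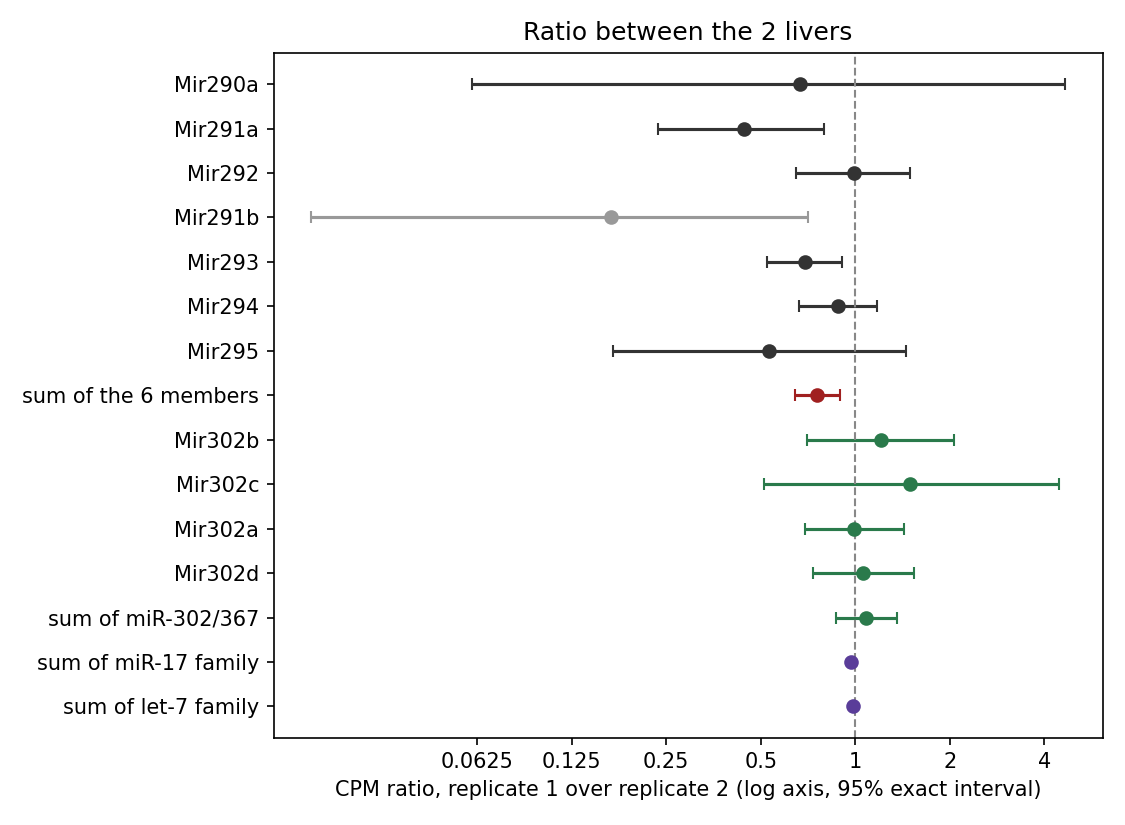
Ratio of CPM in replicate 1 over replicate 2 on a log axis, with 95% exact counting intervals, for the hairpins of the locus, the sum of the 6 members, the miR-302 genes and 3 sums of lists. Mir291a (0.444), Mir293 (0.691) and the sum of the members (0.757) have intervals below 1, while Mir292 (0.987, or 1.003 by TMM scaling) and the miR-302 sum (1.08) have intervals that include 1.

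The miR-302 cluster on chromosome 3 is the other microRNA cluster typical of pluripotent cells. Of its 3p arms in the table of mature sequences, miR-302b-3p and miR-302d-3p bear the same AAGUGCU seed, while miR-302c-3p has AGUGCUU. This cluster was at a like low level. Its 5 genes summed to 63.7 CPM (53.9 to 74.8) in replicate 1 and 58.7 CPM (50.6 to 67.9) in replicate 2. The miR-290 sum was 1.55 times this in replicate 1 and 2.22 times in replicate 2. Mir302a was the highest with 23.8 and 23.9 CPM. Mir302d had 23.4 and 22.0 CPM, Mir302b 12.3 and 10.2 CPM and Mir302c 3.82 and 2.55 CPM. Mir367, a gene of another seed at the end of that cluster, had 1 count in replicate 1 and 0 in replicate 2. None of the 3 genes tested was called, and the ratio of the sum was 1.08 (0.869 to 1.35). Its interval overlaps that of the miR-290 sum, and whether the ratios of the clusters differ was not tested.

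In the table of mature sequences, 5 genes had the seed AAGUGCU on an arm (Mir291a, Mir294, Mir295, Mir302b and Mir302d). They summed to 80.3 CPM in replicate 1 and 92.3 CPM in replicate 2. The table held no 3p arm of Mir302a, the highest gene of its cluster, which is not in this sum. The sum is therefore a lower limit. The miR-17 family, whose seed is the same letters moved by 1 base and which promotes growth in many tissues, summed to 73599 CPM in replicate 1 and 76159 CPM in replicate 2, led by Mir17 with 31476 and 33264 CPM. That is 747 and 585 times the level of the miR-290 cluster. All 6 of its genes were tested, with 1 called higher in replicate 1 and 4 higher in replicate 2, but the ratio of the sum was close to 1 (0.966, 0.960 to 0.972). The let-7 family, which rises as stem cells differentiate and opposes the action of this cluster in them, summed to 68350 and 69664 CPM over 10 genes. Reads that map to several places were not counted, so sums of lists with identical copies, such as let-7, are lower limits. It was led by Mirlet7g with 35359 and 36536 CPM and stood at 693 and 535 times the level of the cluster. Of its 10 genes tested, 2 were higher in replicate 1 and 1 in replicate 2.

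A cluster of microRNA genes on the X chromosome that is active in male germ cells had no count in either library. All 11 genes measured were at 0, so that their sum may reach up to 1.27 CPM in replicate 1 and 0.958 CPM in replicate 2. Other lists, chosen with earlier results of these data known, differed between the libraries, so their ratios and calls are a description only. Neural microRNAs summed to 562 CPM in replicate 1 and 237 CPM in replicate 2, a ratio of 2.37 (2.17 to 2.60). Of the 4 genes tested, 3 were called higher in replicate 1. Mir128-1 was highest by mean (149.96 and 132 CPM) but was the gene not called (ratio 1.14), so the difference lay mostly in other genes. Mir124a-2, Mir124a-3 and Mir9-2 were at 0 in both libraries. They have like-named copies, and reads that map to several places were not counted, so these zeros may be lower limits. MicroRNAs of the Hox clusters summed to 14746 and 4577 CPM, a ratio of 3.22 (3.16 to 3.28), with all 5 genes tested called higher in replicate 1 and Mir10a highest (7584 and 3549 CPM). The liver cell list summed to 105667 and 119139 CPM (ratio 0.887, 0.882 to 0.891), with 3 of 5 genes called higher in replicate 2 and 0 in replicate 1. The red cell list summed to 50018 and 40031 CPM (ratio 1.25, 1.24 to 1.26), with 2 of 3 genes called higher in replicate 1 and 1 in replicate 2. The cluster's ratio was on the side of the liver cell list and opposite to the neural, Hox and red cell lists. The part of these differences in the cluster's own was not tested.

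The genes nearest in level were found by the distance between log2(CPM + 1) values in the 2 libraries, for the 4 members with at least 10 counts in each. Nearest to Mir294 was Mir19b-1, of the miR-17-92 cluster, with exactly the same counts of 83 and 125 (distance 0). There is a like-named gene Mir19b-2, and reads that map to several places were not counted, so the level of Mir19b-1 may be a lower limit. Nearest to Mir292 was Mir7219 with 39 and 56 counts (distance 0.14). Nearest to Mir293 was Mir3061 with 85 and 139 counts (distance 0.19). Mir291a had no neighbour as near, the nearest being Mir184 with 22 and 51 counts (distance 0.42), or 9.35 and 16.3 CPM. Over 2 libraries such nearness is a matter of level and says nothing of shared control.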

How the data were processed

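The deposited tables hold raw read counts per microRNA gene, not normalized, and per the notes deposited with the files they use assembly mm10 and annotation M4, each made from its own alignment. The names of the aligner and the counter, and any trimming, were not given in the sources used here. Own-strand counts were used. Rows naming no gene were left out: unmapped reads were 18.6% and 17.7% of all reads in replicates 1 and 2, reads mapping to several places 34.0% and 33.1%, and reads in no gene 10.6% and 10.4%. Symbols were taken from GENCODE M21 by Ensembl ID for 1894 of 1973 genes. Ratios and p-values were computed with scipy 1.17.1, and the alternative scalings with edgeR 4.0.16 and DESeq2 1.42.0 in R 4.3.3. The test compares 2 libraries, not conditions. The steps were tested on simulated counts.

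The members, lists and tests were chosen with earlier results of these data known. Genes were named by rule: the 6 members, other hairpins of the locus or with a member's seed, the highest gene of each list, the miR-302 genes, and the gene nearest in level to each member with at least 10 counts in both libraries. Members of lists with no row under the listed symbol were not analysed here. Alternatives were counts regardless of strand, other totals, TMM and DESeq2 scaling, minimums of 1 or 100 counts or none, pseudocounts of 0.5 and 10, and leaving out each replicate. A p made by doubling the smaller tail, and the values of Mir291b, were added after seeing the data.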

Additional observations from a re-analysis of the deposited data

How the results depend on the processing

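The calls of Mir291a and Mir293 held under every alternative that tested them, with adjusted p of 0.00967 to 0.0197 for Mir291a and 0.0137 to 0.0320 for Mir293 (exact binomial test). With a minimum of 100 counts in each library, 0 members were left and so 0 were called. Over all reads in place of gene counts, the cluster's mean was 43.4 CPM, since the total is larger by construction. Without 1 replicate the summed level was 98.6 to 130 CPM, and 4 to 5 members had at least 10 counts. The ratio of Mir292 turned to 1.003 by TMM, 1.001 by DESeq2 size factors and 1.04 with 10 added to each count, and that of Mir290a to 1.14 with 10 added, which outweighs its counts of 2 and 4. The number of genes called, 139 (61 higher in replicate 1 and 78 in replicate 2), ranged between 130 and 147. The split was 66 and 65 by TMM, 66 and 66 by DESeq2 size factors, 55 and 92 without the highest gene in the total, 49 and 81 with a minimum of 100 counts, 67 and 72 with no minimum, 67 and 80 regardless of strand, and 59 and 77 with the doubled tail. No paired analysis was possible because there is 1 group. Depth limits Mir290a, Mir295 and Mir291b, which have under 20 counts in each library.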
